A study of Mus musculus with 21 samples.

Results

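The genes described here are 32 genes of fatty acid oxidation, ketone body metabolism and the PPAR receptors that control them, taken by symbol from a list out of the 24062 genes in a count table of mouse colon. All 32 symbols were found, and 30 passed the filter on low counts. This list and the other gene lists were chosen with earlier results of these data known. Their counts set beside the shares of all genes are therefore descriptions and not independent support. RNA was sequenced from 21 libraries in 7 groups of 3, all from C57BL/6 mice that were either wild-type or App NL-G-F knock-in animals, whose App gene carries mutations related to Alzheimer's disease. Tumours came from mice given AOM/DSS, which pairs the carcinogen azoxymethane with dextran sulfate sodium, an agent that injures the colon lining. The groups were wild-type male normal colon, wild-type male tumour, knock-in male normal colon, knock-in male tumour, wild-type female normal colon, wild-type female tumour and knock-in female normal colon. A knock-in female tumour group was not analysed here. Age is not given in the labels, and a library is not tied to an animal by them, so p-values measure only the spread between these libraries. Normal libraries are labelled "Non-treatment", whereas the series describes normal tissue beside tumours or normal colon where no tumour formed, so they are called normal colon. Counts per gene do not carry the knock-in alleles and cannot check the genotype labels.

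Fatty acids are burned mainly in mitochondria. Carnitine palmitoyltransferases and a carnitine carrier bring long chains across the mitochondrial membranes, and repeated rounds of dehydrogenation, hydration, a second dehydrogenation and thiolysis then cut the chain into acetyl-CoA. Peroxisomes run a related pathway for very long and branched or dicarboxylic acids. The mature colonocyte draws much of its energy from butyrate, a short-chain fatty acid made by gut bacteria. Butyrate enters through monocarboxylate transporters and is oxidised in mitochondria by the short-chain enzymes of the route above, not by its long-chain steps. PPAR-alpha and PPAR-gamma are nuclear receptors that bind fatty acids and act with RXR on genes of lipid handling.

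PPAR and RXR are known to bind direct repeats of a hexamer spaced by a single base, so the RefSeq promoter windows (GRCm38.p6, 250 bases before to 50 after the start) were searched on both strands. The repeat was searched as 2 copies of AGGNCA with any 1 base between them, and the single half-site as AGGTCA. The Fabp1 match to the repeat also holds the half-site. A window was at hand for 28 of the 32 genes. The repeat was in the window of 1 of these 28 genes, Fabp1, which encodes a liver-type fatty acid binding protein, against 0.451% of all 27025 genes with a window. The half-site was in the windows of 7 of 28 genes (Acadm, Acadvl, Cd36, Cpt1a, Fabp1, Plin2 and Pparg), against 18.1% of all genes. Those outside exons are shown, 5′ to 3′ on the strand of the gene, with the match in capitals. Of the genes shown, Acadm, Acadvl, Cpt1a and Cd36 were lower in wild-type tumours below, whereas Plin2 did not pass and Fabp1 had no counts. Whether a match goes with a tumour change was not tested. A match is a description of the letters and not a bound site.
Fabp1, chr6:71199796-71199826, plus strand: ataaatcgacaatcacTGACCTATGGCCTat
Acadm, chr3:153944871-153944893, minus strand: gTGACCTtcgggctccggtgaca
Acadvl, chr11:70015494-70015531, minus strand: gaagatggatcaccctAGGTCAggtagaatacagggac
Cpt1a, chr19:3323191-3323228, plus strand: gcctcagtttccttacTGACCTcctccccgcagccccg
Plin2, chr4:86670256-86670293, minus strand: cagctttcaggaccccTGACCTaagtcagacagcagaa
Cd36, chr5:17836103-17836140, minus strand: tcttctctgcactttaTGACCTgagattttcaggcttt

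Hadha and Hadhb, the alpha and beta subunits of the mitochondrial trifunctional protein, lie head to head. Hadha runs on the minus strand from chr5:30118304-30155162 and Hadhb on the plus strand from chr5:30155248-30184593, which leaves 85 bases between their annotated ends. The stretch is shown on the plus strand because the pair is described in the tumour comparisons. No half-site was found in it.
Between Hadha and Hadhb, chr5:30155163-30155247: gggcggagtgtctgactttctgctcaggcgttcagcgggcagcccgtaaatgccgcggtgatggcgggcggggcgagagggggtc

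Library totals ran from 3414123 counts in wild-type male tumour replicate 2 to 26174008 in wild-type female normal replicate 1. Levels are given as CPM, the count of a gene relative to the library total as scaled by TMM, and 3 counts correspond to between 0.127 and 0.873 CPM. Fabp1 had 0 counts in all 21 libraries. Within any single library this allows up to the level of 3 counts there, counting error only. Why Fabp1 had no counts was not tested. Acaa1b, a peroxisomal thiolase with a near-identical copy in Acaa1a, had at most 12 counts in a library and did not pass the filter. The other 30 genes were tested with edgeR's quasi-likelihood test over all 15936 genes that passed, and "called" means a Benjamini-Hochberg adjusted p under 0.05. Colon epithelium was present in every library: the 8 epithelium markers summed to between 5443 and 10030 CPM.

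Levels of different genes are compared per kilobase of the longest transcript. In wild-type male normal colon Slc16a1, which encodes the monocarboxylate transporter MCT1 for butyrate, lactate and ketone bodies, was first of 32 at 77.9 ± 38.0 CPM per kilobase (SD, n = 3). Cpt1a at 66.0 ± 20.7, Ech1 at 64.7 ± 15.9 and Acadl at 63.7 ± 9.06 CPM per kilobase followed, and these 4 did not differ beyond their spread. The 2 receptors were lower, with Pparg at 16.3 ± 1.83 and Ppara at 3.75 ± 1.24 CPM per kilobase, and their ranges were apart. In wild-type male tumours Slc16a1 ranked 16 of 32 at 14.6 ± 1.07 CPM per kilobase, while Acadl, the long-chain acyl-CoA dehydrogenase, ranked first at 53.1 ± 3.81. In knock-in male tumours Slc16a1 ranked 8 at 35.7 ± 13.7 CPM per kilobase, and Acadl was again first, at 72.0 ± 9.49.

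**Figure D1:**
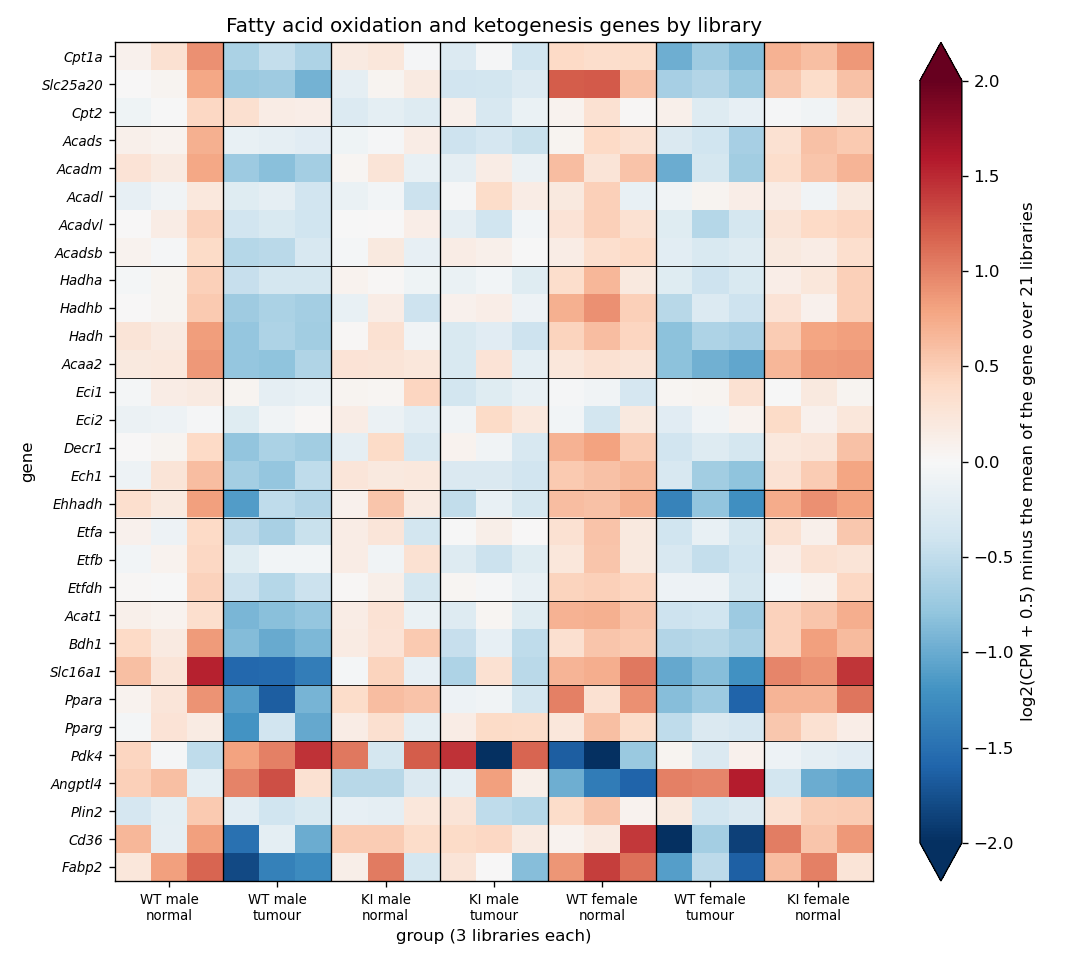
Level of each of the 30 genes that passed the low-count filter (rows, grouped by role) in each of the 21 libraries (columns, 3 per group; WT, wild type; KI, App NL-G-F knock-in), as log2(CPM + 0.5) minus the mean of that gene over all libraries, with the colours ending at −2 and 2. Wild-type tumours of both sexes are mostly blue, with library medians from -0.65 to -0.40, whereas the knock-in male tumours are paler, with medians from -0.22 to -0.03.

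Tumours of wild-type males had lower levels of most of these genes than wild-type male normal colon. Of the 30 genes, 22 fell and 0 rose, beside 19.3% of all tested genes called lower and 16.5% called higher. The median log2 fold change was -0.89 over the 30 genes and 0.01 over all tested genes. In 24 of the 30 the 3 tumours lay below the 3 normal libraries without overlap, beside 26.4% of all genes. The genes with the largest falls were a fatty acid binding protein, the butyrate transporter, a receptor and a fatty acid translocase.

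Fabp2 (chr3:122895072-122899506), the intestinal fatty acid binding protein, stood at 4.49, 7.04 and 9.05 CPM in the wild-type male normal libraries and at 0.720, 1.16 and 1.29 CPM in the tumours. All 3 tumours were below all 3 normal libraries, on 10, 4 and 14 counts. Fabp2 was thus lower in tumours (log2 fold change -2.72, SE 0.49, adjusted p = 0.000373).

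Slc16a1 (chr3:104638668-104658462) stood at 279.5, 219 and 536 CPM in wild-type male normal colon and at 61.5, 62.3 and 70.1 CPM in the tumours. The tumours were close together and the normal libraries were not, with replicate 3 far above the others. No library of either group overlapped (log2 fold change -2.41, SE 0.31, adjusted p = 2.86e-05).

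Ppara (chr15:85734983-85802819), which encodes PPAR-alpha, stood at 9.73, 11.0 and 17.6 CPM in normal colon and at 4.03, 2.62 and 4.61 CPM in the tumours. The groups were apart (log2 fold change -1.70, SE 0.28, adjusted p = 0.000197). Pparg (chr6:115360951-115490399), which encodes PPAR-gamma, stood at 30.5, 38.2 and 35.3 CPM in normal colon and at 13.4, 23.9 and 15.2 CPM in the tumours. Its groups were apart too (log2 fold change -1.03, SE 0.19, adjusted p = 0.000446).

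Cd36, a membrane protein for long-chain fatty acid uptake, stood at 19.5, 10.6 and 21.8 CPM in normal colon and at 3.96, 10.5 and 5.80 CPM in the tumours. Normal replicate 2 and tumour replicate 2 nearly met. The fall passed (log2 fold change -1.46, SE 0.45, adjusted p = 0.0193), but not without normal replicate 3, tumour replicate 1 or tumour replicate 3, with an adjusted p of up to 0.1. Acads, the short-chain acyl-CoA dehydrogenase, at -0.51 on the log2 scale, did not pass without normal replicate 3 either (adjusted p = 0.133).

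Along the pathway, 2 of 3 genes of the carnitine shuttle fell. Cpt1a, the outer membrane transferase and control point of the route, changed by -1.05 and the carrier Slc25a20 by -1.14 on the log2 scale, while the inner membrane transferase Cpt2 did not pass at 0.08 (adjusted p = 0.675). Of the 5 acyl-CoA dehydrogenases, which take the first step by chain length, 4 fell, from -1.19 for medium-chain Acadm to -0.51 for Acads. Long-chain Acadl did not pass at -0.26 (adjusted p = 0.183). All 4 genes of the later steps fell: Hadha at -0.57, Hadhb at -0.90, the 3-hydroxyacyl-CoA dehydrogenase Hadh at -1.15 and the thiolase Acaa2 at -1.19.

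Unsaturated chains need extra enzymes, and 2 of those 4 genes fell, the dienoyl-CoA reductase Decr1 at -0.89 and the dienoyl-CoA isomerase Ech1 at -0.93. The enoyl-CoA isomerases Eci1 and Eci2 did not pass, at -0.19 and -0.01. Ehhadh, the bifunctional enzyme of peroxisomes, fell by 1.24 on the log2 scale. Of the electron transfer genes, Etfa at -0.68 and Etfdh at -0.65 fell, and Etfb did not pass at -0.28 (adjusted p = 0.111).

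All 3 genes of ketone body and short-chain acid metabolism fell. Besides Slc16a1 these were Acat1, the mitochondrial acetoacetyl-CoA thiolase, at -1.02 and Bdh1, the dehydrogenase that interconverts acetoacetate and 3-hydroxybutyrate, at -1.44. Pdk4, a kinase that inhibits pyruvate dehydrogenase, and Angptl4, a secreted inhibitor of lipoprotein lipase, had positive log2 fold changes of 1.13 and 0.60 without passing (adjusted p = 0.186 and 0.198). Plin2, a lipid droplet coat protein, did not pass at -0.35. Pdk4 varied widely within a group, from 1.54 to 24.2 CPM over the 3 knock-in male tumours.

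Acadvl and the gene Dvl2 on the opposite strand share 42.9% of the exon bases of Acadvl, and the strand setting of the counting is not given in the sources used here, so the value of Acadvl is uncertain. Dvl2 was higher in wild-type male tumours at 0.55 (adjusted p = 0.0302), opposite in sign to the -0.58 of Acadvl. In wild-type female tumours Dvl2 did not pass at 0.42 (adjusted p = 0.0777). In knock-in male tumours it was lower at -0.55 (adjusted p = 0.0464). Mean Acadvl there was also lower, at 68.5 CPM in tumours against 81.6 CPM in normal colon, without a call. Etfb shares 53% of its exon bases with Gm45233 and Bdh1 13.7% with Gm15743. Neither of those 2 genes is a row of the table used here.

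Wild-type female tumours showed the same genes at lower levels. Of the 30 genes, 23 fell and 1 rose, beside 24% of all tested genes called lower and 25% called higher. The median was -0.90 over the 30 genes and 0.01 over all tested genes, and 23 of 30 lay lower without overlap, beside 28.6% of all genes. All 22 genes called in wild-type males were also called lower here, out of libraries that share no control with the males. Etfb was called in females besides these, at -0.74 (adjusted p = 0.000187). Angptl4, Pdk4 and Eci1 lay higher in tumours without overlap, beside 29.9% of all genes, and of these Angptl4 passed.

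Angptl4 was the exception. This gene (chr17:33773750-33781830) stood at 1.48, 0.976 and 0.774 CPM in wild-type female normal colon, on 35, 7 and 5 counts, and at 7.34, 7.14 and 11.1 CPM in the tumours. All 3 tumours were above all 3 normal libraries (log2 fold change 2.89, SE 0.40, adjusted p = 1.17e-05).

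Fabp2 stood at 7.40, 10.6 and 8.67 CPM in female normal colon and at 1.49, 2.46 and 0.870 CPM in female tumours. Every tumour was below every normal library (log2 fold change -2.46, SE 0.46, adjusted p = 0.000235). Cd36 stood at 12.8, 13.8 and 33.1 CPM in normal colon and at 1.63, 7.37 and 2.94 CPM in the tumours. Both groups of Cd36 were spread widely and did not meet (log2 fold change -2.29, SE 0.47, adjusted p = 0.000637).

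Ppara stood at 19.1, 11.6 and 17.96 CPM in female normal colon and at 4.89, 5.38 and 2.72 CPM in the tumours. There was no overlap (log2 fold change -1.91, SE 0.28, adjusted p = 2.18e-05). Pparg stood at 36.7, 47.7 and 40.6 CPM in normal colon and at 22, 25.7 and 24.8 CPM in the tumours. It did not overlap either (log2 fold change -0.78, SE 0.18, adjusted p = 0.00171).

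By role, the female tumours again had lower Cpt1a (-1.22) and Slc25a20 (-1.71) without a call for Cpt2 (-0.24), and 4 of 5 acyl-CoA dehydrogenases without a call for Acadl (-0.16). All 4 genes of the later steps fell, from -0.73 for Hadha to -1.22 for Acaa2. All 3 electron transfer genes fell, from -0.74 to -0.64, and all 3 ketone and short-chain acid genes, from -1.85 for Slc16a1 to -1.07 for Bdh1. Eci1, Eci2, Cpt2, Acadl, Plin2 and Pdk4 were the 6 genes without a call in either wild-type comparison.

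**Figure D2:**
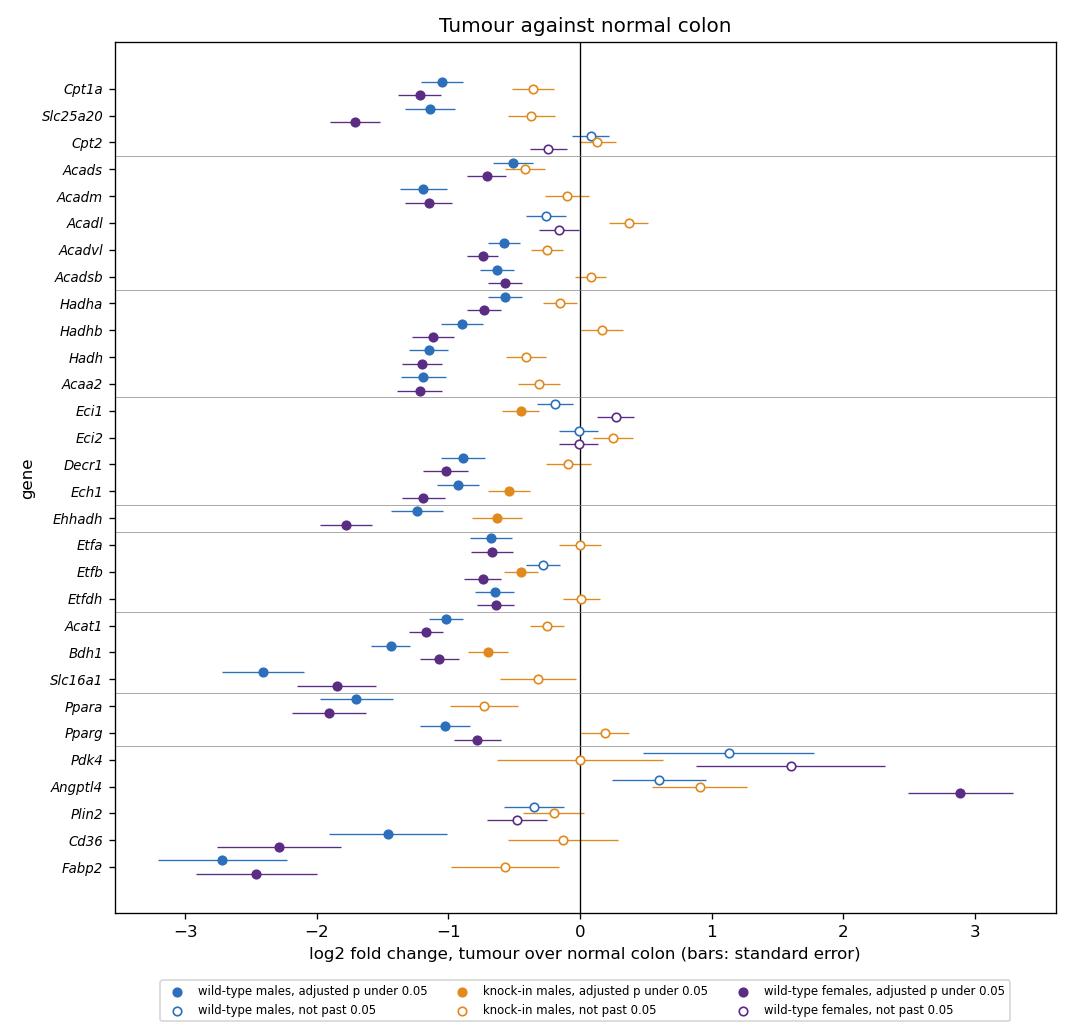
Log2 fold change of tumour over normal colon (x axis; bars, 1 standard error from edgeR) for the 30 genes that passed the filter (y axis, grouped by role), in wild-type males, knock-in males and wild-type females. Filled points passed an adjusted p of 0.05: 22, 5 and 24 genes. The points of knock-in males lie nearer 0, with a median of -0.22 against -0.89 and -0.90.

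Knock-in male tumours had fewer calls against knock-in male normal colon. Of the 30 genes, 5 fell and 0 rose, beside 9.97% of all tested genes called lower and 10.4% called higher. The median was -0.22 over the 30 genes and 0.01 over all tested genes, and 11 of 30 lay lower without overlap, beside 17.5% of all genes. Those called were Bdh1, Ehhadh, Ech1, Eci1 and Etfb, of which Bdh1, Ehhadh and Ech1 were also called in wild-type males.

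Bdh1 (chr16:31422280-31458901) stood at 68.9, 74.5 and 88.9 CPM in knock-in male normal colon and at 44.9, 55.1 and 43.3 CPM in the tumours. All tumours were below all normal libraries (log2 fold change -0.70, SE 0.15, adjusted p = 0.0055). Ehhadh stood at 23.1, 32.1 and 24.6 CPM in normal colon and at 15.2, 19.5 and 16.9 CPM in the tumours. Its groups were again apart (log2 fold change -0.63, SE 0.19, adjusted p = 0.0278).

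Ech1 stood at 79.3, 76.8 and 77.8 CPM in knock-in male normal colon and at 55.1, 54.6 and 51.1 CPM in the tumours. Libraries were close together within both groups, and the groups apart (log2 fold change -0.54, SE 0.16, adjusted p = 0.0231). Eci1 stood at 22.3, 22.2 and 29.4 CPM in normal colon and at 16.7, 18.2 and 19.4 CPM in the tumours. The groups of Eci1 did not meet (log2 fold change -0.45, SE 0.14, adjusted p = 0.0292).

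Ppara stood at 12.2, 14.5 and 14.0 CPM in knock-in male normal colon and at 8.64, 8.81 and 7.05 CPM in the tumours. The groups were apart, but the difference did not pass (log2 fold change -0.73, SE 0.26, adjusted p = 0.0557). Pparg stood at 34.8, 39.2 and 27.5 CPM in normal colon and at 34.7, 40.9 and 40.5 CPM in the tumours, which overlapped (log2 fold change 0.19, adjusted p = 0.457). Acadl, Etfa, Etfdh, Hadhb and Acadsb had log2 fold changes between 0.00 and 0.37 and did not pass.

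The count of 5 rested on single libraries, and Bdh1 alone of the 5 passed without each of them and in all 10 other fits. It was 7 without knock-in male normal replicate 1, 4 without normal replicate 2, 1 without normal replicate 3, 3 without tumour replicate 1, 4 without tumour replicate 2 and 3 without tumour replicate 3. A fit of the 2 groups alone gave 2 and one with offsets for GC content and transcript length gave 3.

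Of the 30 genes, 12 were higher and 0 lower in tumours of knock-in males than in tumours of wild-type males, beside 9.3% of all tested genes called higher and 5.23% called lower. The median was 0.44 over the 30 genes and 0.05 over all tested genes, and 21 of 30 lay higher without overlap, beside 20.3% of all genes. The 12 were both receptors, all 3 ketone and short-chain acid genes, the dehydrogenases Acadm and Acadsb, Hadhb, Acaa2, Decr1, Etfa and Fabp2.

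Fabp2 stood at 4.63, 3.79 and 1.86 CPM in knock-in male tumours, above the 0.720 to 1.29 CPM of the wild-type ones (log2 fold change 1.75, SE 0.49, adjusted p = 0.0271). The call of Fabp2 was lost in 4 of 10 other fits and without 5 of the 6 libraries in turn, with an adjusted p of up to 0.126. Slc16a1 stood at 119, 228 and 126.5 CPM, also above all 3 wild-type tumours (61.5 to 70.1 CPM). Its replicate 2 was far above the other 2 (log2 fold change 1.29, SE 0.30, adjusted p = 0.0131).

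Pparg, at 34.7 to 40.9 CPM in knock-in male tumours against 13.4 to 23.9 CPM in wild-type ones, was higher (log2 fold change 1.19, SE 0.19, adjusted p = 0.0035). Ppara, at 7.05 to 8.81 CPM against 2.62 to 4.61 CPM, was higher too (log2 fold change 1.07, SE 0.28, adjusted p = 0.022). Neither receptor's groups overlapped.

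Hadhb stood at 85.6, 87.9 and 75.1 CPM in knock-in male tumours and at 48.7, 51.5 and 49.6 CPM in wild-type ones. The groups were well apart (log2 fold change 0.73, SE 0.16, adjusted p = 0.0104). Its head-to-head partner Hadha, at 154, 164 and 143 CPM against 123, 133 and 133 CPM, did not pass at 0.25 (adjusted p = 0.206). Whether the 2 genes differed from each other was not tested.

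Acadm stood at 62.6, 78.4 and 65.6 CPM in knock-in male tumours and at 42.5, 39.6 and 44.1 CPM in wild-type ones, so that all were higher (log2 fold change 0.71, SE 0.18, adjusted p = 0.017). The other genes called were Acat1 at 0.70, Acaa2 at 0.67, Decr1 at 0.62, Etfa at 0.58, Acadsb at 0.57 and Bdh1 at 0.56. Cpt1a at 0.35, Slc25a20 at 0.47, Hadh at 0.39 and Ehhadh at 0.42 lay higher without overlap but did not pass. Cpt2 at -0.32, Acads at -0.22 and Etfb at -0.20 lay lower without overlap, beside 16.1% of all genes, and did not pass.

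This count also rested on single libraries. It was 3 without wild-type male tumour replicate 1, 5 without wild-type tumour replicate 2, 8 without wild-type tumour replicate 3 or knock-in tumour replicate 1, 2 without knock-in tumour replicate 2 and 12 without knock-in tumour replicate 3. Acat1 and Pparg passed without each of the 6 libraries and in all 10 other fits, and none of the other 10 genes did. With a block for the replicate number and GC content and length offsets together it was 4.

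**Figure D3:**
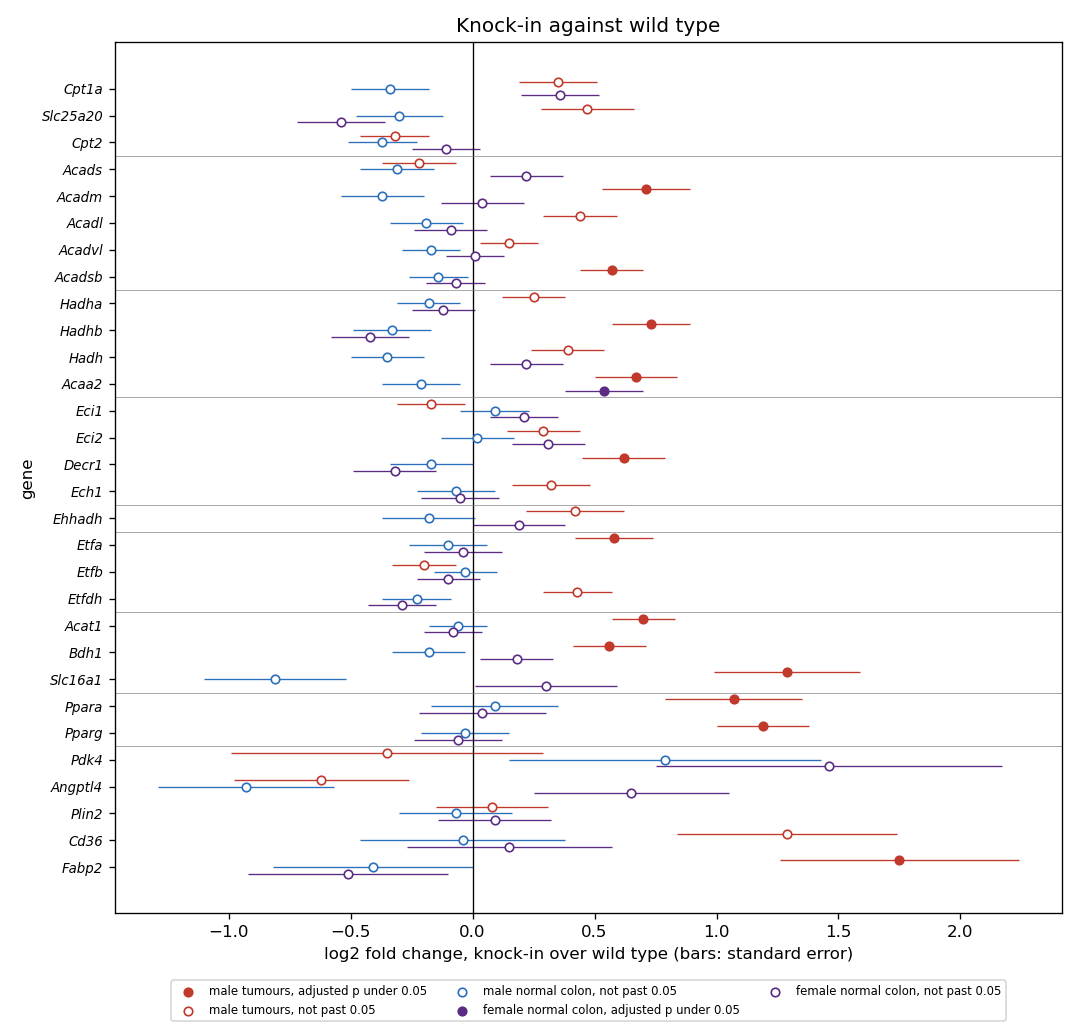
Log2 fold change of knock-in over wild type (x axis; bars, 1 standard error from edgeR) for the 30 genes that passed the filter (y axis, grouped by role), in male tumours, male normal colon and female normal colon. Filled points passed an adjusted p of 0.05: 12 genes in male tumours, 0 in male normal colon and 1, Acaa2, in female normal colon.

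Whether the change from normal colon to tumour differed between the male genotypes was tested as an interaction. Of the 30 genes, 5 had a tumour change that was more positive in the knock-in genotype and 0 the reverse, beside 1.14% and 0.37% of all tested genes. The median difference was 0.69 over the 30 genes and 0.05 over all tested genes. This test uses the same male tumours as the comparison above and adds the male normal libraries.

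For Slc16a1 the difference between the 2 tumour changes was 2.09 (SE 0.41, adjusted p = 0.0406). In wild-type males it fell as given above, while in knock-in males it stood at 178, 249.7 and 164 CPM in normal colon and at 119 to 228 CPM in tumours, which overlapped. Pparg had a difference of 1.23 (SE 0.26, adjusted p = 0.0406). Its wild-type tumours lay below all normal libraries, while its knock-in tumours overlapped with knock-in normal colon.

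Hadhb had a difference of 1.06 (SE 0.23, adjusted p = 0.0406). It stood at 80.4, 83.7 and 115 CPM in wild-type male normal colon and at 72.6, 89.0 and 59.8 CPM in knock-in male normal colon. Its wild-type tumours lay under all normal libraries and its knock-in tumours among them.

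Acadm had a difference of 1.08 (SE 0.25, adjusted p = 0.0455). It stood at 86.2, 80.3 and 122 CPM in wild-type male normal colon and at 73.1, 85.1 and 63.8 CPM in knock-in male normal colon, so that its knock-in normal and tumour libraries overlapped.

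Acat1 had a difference of 0.76 (SE 0.18, adjusted p = 0.0465). It stood at 82.3, 81.1 and 97.1 CPM in wild-type male normal colon against 40.8, 42.8 and 45.0 CPM in the tumours. In knock-in mice it stood at 85.0, 94.5 and 70.2 CPM in normal colon against 64.5, 79.5 and 65.4 CPM in tumours, which overlapped.

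All 5 calls were near the threshold and depended on the fit. The count was 0 with the 4 compared groups alone, with the replicate block, with a covariate for the 3 libraries whose number is 152 or more and with GC content and length offsets, whereas it was 13 with DESeq2 and 9 with limma voom. It was 0 without wild-type normal replicate 3, any wild-type tumour replicate, knock-in normal replicate 1 or 3, or knock-in tumour replicate 2, and 12 without knock-in normal replicate 2.

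**Figure D4:**
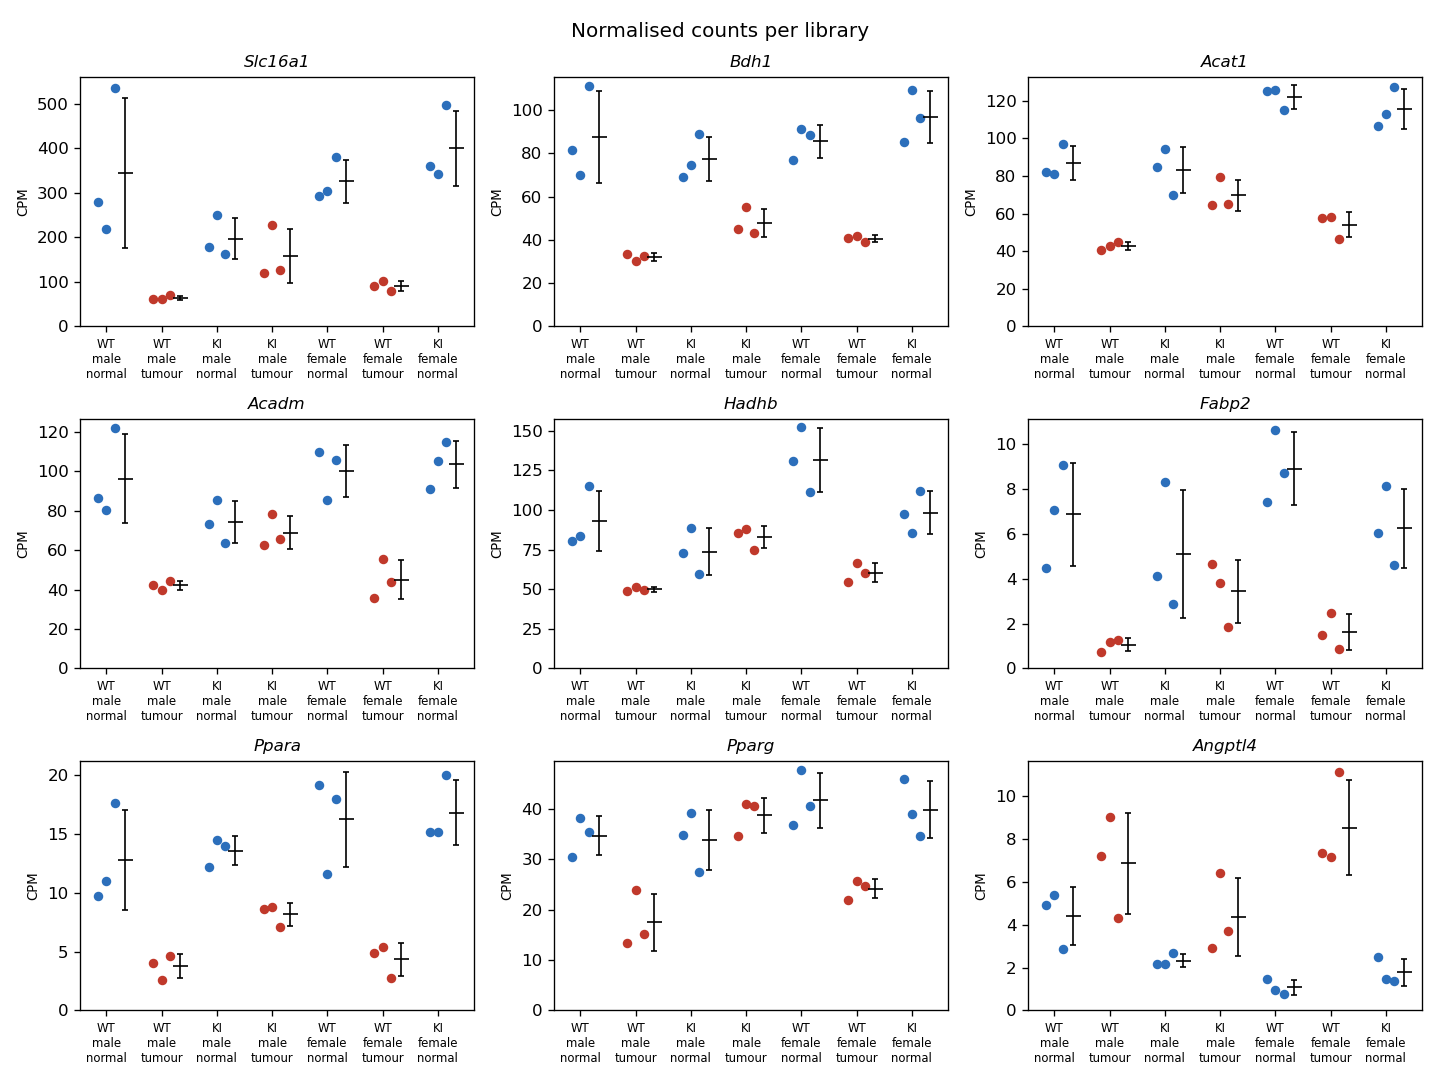
CPM (y axis, starting at 0) of 9 genes in each library (points; blue, normal colon; red, tumour) of the 7 groups, with the group mean and SD (black). The 3 wild-type male tumours of Slc16a1 sit between 61.5 and 70.1 CPM, and Angptl4 is the gene whose wild-type female tumours lie above their normal colon.

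In male normal colon 0 of 30 genes passed between the genotypes, beside 0.0126% of all tested genes. At an unadjusted p under 0.05 there were 6 of 30 with edgeR, and DESeq2 and limma voom called 0. Of the 30 genes, 26 had a negative log2 fold change. The median was -0.18 over the 30 genes and 0.00 over all tested genes, and it was -0.01 without wild-type male normal replicate 3.

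In females 1 of 30 genes passed, higher in knock-in mice, beside 8.97% of all tested genes called higher and 16% called in either direction. Acaa2 stood at 70.2, 80.0 and 80.9 CPM in knock-in female normal colon and at 51.7, 54.2 and 53.0 CPM in wild-type female normal colon. All knock-in libraries were higher (log2 fold change 0.54, SE 0.16, adjusted p = 0.0303). The call was lost without any 1 of the 3 wild-type libraries or without knock-in replicate a or b, libraries that carry the same name in the table, with an adjusted p of up to 0.105. For the genotype difference in normal colon between the sexes 0 of 30 genes passed, beside 2.54% of all tested genes. At an unadjusted p under 0.05 there were 6 with edgeR, and DESeq2 called 2 and limma voom 0.

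Between the sexes, wild-type normal colon differed in 5 of the 30 genes, with 4 higher and 1 lower in females, beside 5.74% of all tested genes called higher and 10.2% called lower. In either direction 2534 of 15936 tested genes were called, a share close to the 16.7% of these 30 genes. Angptl4 was lower in females, at 0.774 to 1.48 CPM against 4.91, 5.39 and 2.89 CPM in males. The sexes did not overlap (log2 fold change -1.94, SE 0.39, adjusted p = 0.00298).

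Slc25a20 stood at 177, 179 and 113 CPM in females and at 76.7, 79.1 and 131 CPM in males. Female replicate 3 lay below male replicate 3, so the groups overlapped (log2 fold change 0.71, SE 0.18, adjusted p = 0.0139). Acat1 stood at 125, 126 and 115 CPM in females, above the 81.1 to 97.1 CPM of males (log2 fold change 0.49, SE 0.13, adjusted p = 0.013). The call of Slc25a20 was lost without 4 of the 6 libraries in turn and that of Acat1 without 3. Each was also lost in 1 of 10 other fits, at an adjusted p of 0.102 for Slc25a20 and 0.077 for Acat1.

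Decr1 stood at 56.9, 61.7 and 49.9 CPM in females and at 35.2, 36.3 and 46.5 CPM in males. All females were higher (log2 fold change 0.52, SE 0.17, adjusted p = 0.0432). Hadhb stood at 131, 152 and 111.5 CPM in females and at 80.4 to 115 CPM in males, which overlapped (log2 fold change 0.50, SE 0.16, adjusted p = 0.0382). The call of Decr1 was lost in 7 of 10 other fits, the replicate block and other scalings among them, and that of Hadhb in 5 of 10, with adjusted p of up to 0.172 and 0.427. The count of 5 was 1 without female replicate 2 or male replicate 1 or 2, 2 without female replicate 1, and 8 without male replicate 3.

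In knock-in normal colon 0 of 30 genes passed between the sexes, beside 0.584% of all tested genes. At an unadjusted p under 0.05 there were 14 of 30 with edgeR, and DESeq2 called 5 and limma voom 7. The median was 0.32 over the 30 genes and -0.01 over all tested genes, and 16 of 30 lay higher in females without overlap, beside 10% of all genes. Without knock-in male normal replicate 2 the count was 4. In wild-type tumours 0 of 30 passed between the sexes, beside 0.86% of all tested genes, with 6 at an unadjusted p under 0.05 with edgeR, 0 called with DESeq2 and 3 with limma voom.

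The change from normal colon to tumour differed between wild-type females and males in 1 of 30 genes, more positive in females, beside 0.929% of all tested genes in that direction. This was Angptl4, whose change was 2.29 more positive in females (SE 0.53, adjusted p = 0.0438). Its tumours overlapped between the sexes, at 7.34, 7.14 and 11.1 CPM in females and 7.20, 9.02 and 4.33 CPM in males, while its normal libraries did not. The call was lost without 10 of the 12 libraries in turn, the exceptions being female tumour replicate 1 and male normal replicate 3, with an adjusted p of up to 0.13.

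Markers of some cell types also differed between the groups. The 8 markers of mature colonocytes summed to 1368 to 3326 CPM in wild-type male normal colon and 425 to 548 CPM in wild-type male tumours. The sums were 2426 to 5672 and 319 to 458 CPM in wild-type females, and 903 to 1621 and 504 to 1345 CPM in knock-in males. Of the 8, 6 fell in wild-type male tumours, 7 in wild-type female tumours and 5 in knock-in male tumours, with medians of -2.30, -2.91 and -1.21. Between knock-in and wild-type male tumours 1 of 8 was called, Guca2a, a peptide hormone precursor, at 0.87 (adjusted p = 0.0311), with a median of 1.24. None of the 8 was at 0 in all libraries of a group.

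Wild-type male normal replicate 3 held the highest sum of colonocyte markers of its group, 3326 CPM beside 1411 and 1368 CPM. It also had the highest median of the 30 genes relative to their means, 0.50 beside 0.06 and 0.08 on the log2 scale. Without it 20 of 30 genes fell in wild-type male tumours, with a median of -0.72. Among knock-in male tumours, replicate 1 had the highest colonocyte sum, 1345 CPM beside 715 and 504 CPM, whereas replicate 2 had the highest Slc16a1. A large part of that highest sum was a single marker, Car1, which ranged from 52.4 to 679 CPM over the knock-in male tumours.

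Smooth muscle markers were far lower in tumours. Their sum of 8 genes was 2862 to 9728 CPM in wild-type male normal colon and 192 to 754 CPM in wild-type male tumours, 1984 to 4593 and 176 to 212 CPM in wild-type females, and 4569 to 8287 and 888 to 1006 CPM in knock-in males. All 8 fell in each of these comparisons. None of the 8 was called between knock-in and wild-type male tumours, at a median of 1.24. None was at 0 in any library.

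Epithelium markers changed less, with sums of 7315 to 9704 and 6439 to 6837 CPM in wild-type males, 9043 to 10030 and 5443 to 6511 CPM in wild-type females, and 7182 to 7778 and 6603 to 7969 CPM in knock-in males. Of the 8, 5 fell and 1 rose in wild-type male tumours, 7 fell and 1 rose in wild-type female tumours, and 0 fell and 1 rose in knock-in male tumours. None of these 8 was at 0 in any library.

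The 8 adipocyte markers, given because Pparg, Cd36, Plin2 and Angptl4 are also genes of fat tissue, summed to 11.6 to 62.5 CPM over all libraries. Adipoq, the fat cell hormone gene, was at 0 in all tumours of the 3 tumour groups and in knock-in female normal colon. Lep was at 0 in all 3 tumour groups too, Plin1 in knock-in male tumours and knock-in female normal colon, and Retn in knock-in male tumours. The highest level of Adipoq in a normal library was 2.08 CPM. The 5 macrophage markers in the table, of a list of 6, summed to 106 to 265 CPM over all libraries and the 6 endothelium markers to 55.2 to 195 CPM. Of the macrophage markers, 2 of 5 were lower in male tumours of knock-in mice than of wild-type mice, and in both wild-type tumour comparisons 1 rose and 1 fell. All 6 endothelium markers were lower in wild-type female than in wild-type male normal colon, at a median of -1.16. The endothelium sum was 55.2 to 82.5 CPM in those females, below the 118 to 159.5 CPM of the males. Of the 6, 3 rose in wild-type female tumours, while 1 rose and 1 fell in wild-type male tumours. In bulk tissue fewer cells of a type and less RNA per cell cannot be told apart, and the part of these markers in the results was not tested.

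**Figure D5:**
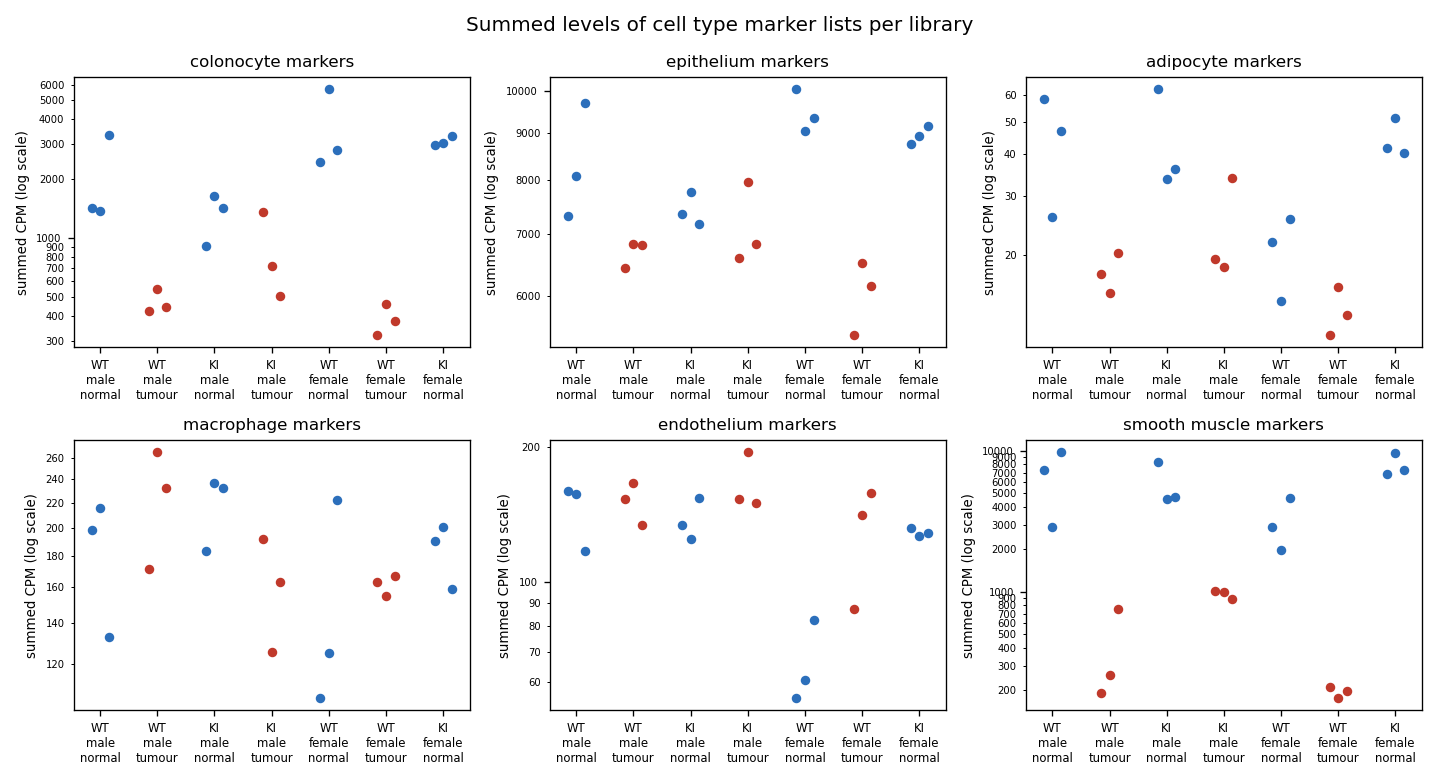
Summed CPM (y axis, log scale) of 6 lists of cell type markers in each library (points; blue, normal colon; red, tumour) of the 7 groups. Colonocyte and smooth muscle sums are lower in every tumour group than in its normal group, except that 1 knock-in male tumour (1345 CPM) lies among the knock-in male normal libraries (903 to 1621 CPM) for colonocyte markers. Car1 alone ranged from 52.4 to 679 CPM over the knock-in male tumours and is a large part of that sum.

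Most general mitochondrial genes were lower in wild-type tumours too. Of 14 genes of the citric acid cycle, respiratory chain and mitochondrial upkeep, 11 fell and 1 rose in wild-type male tumours, with a median of -0.55, and 11 fell and 1 rose in wild-type female tumours, with a median of -0.70. In knock-in male tumours 3 fell and 2 rose, with a median of -0.14. Beside this and the other lists, 19.3% of all tested genes were called lower and 16.5% higher in wild-type male tumours. The shares were 24% and 25% in wild-type female tumours and 9.97% and 10.4% in knock-in male tumours. Between knock-in and wild-type male tumours they were 5.23% and 9.3%. Cs, the citrate synthase gene, changed by -0.73 (adjusted p = 0.00035) in wild-type males and by -1.11 (adjusted p = 2.71e-06) in wild-type females. Between knock-in and wild-type male tumours 4 of 14 were higher and 0 lower, among them the complex I gene Ndufs1 at 0.54 (adjusted p = 0.0159) and the complex III gene Uqcrc2 at 0.53 (adjusted p = 0.0219).

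A list of 10 genes around PPAR-alpha and PPAR-gamma mixed partners, other receptors, coactivators and corepressors. Of these 10, 6 fell in each of the 3 tumour comparisons, and 1 rose in both wild-type ones. Ppargc1b, a coactivator of mitochondrial genes, changed by -2.09 in wild-type males (adjusted p = 9.48e-05), -2.42 in wild-type females (adjusted p = 8.14e-06) and -1.31 in knock-in males (adjusted p = 0.00728). Ppard, the third PPAR receptor, changed by -1.01, -1.42 and -0.92 (adjusted p = 0.000602, 1.03e-05 and 0.00425). None of the 10 was called between knock-in and wild-type male tumours.

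Other genes of ketone body and short-chain acid handling included several transporters. Of 11 genes, 5 fell and 2 rose in wild-type male tumours, 5 fell and 1 rose in wild-type female tumours, and 2 fell and 0 rose in knock-in male tumours. Slc5a8, a sodium-coupled transporter of butyrate, changed by -3.81 in wild-type males (adjusted p = 5.52e-05), by -3.93 in wild-type females (adjusted p = 1.31e-05) and by -1.33 in knock-in males (adjusted p = 0.0497). Between the male tumours Slc5a8 was 2.02 higher in knock-in mice (adjusted p = 0.0157). There 4 of the 11 genes were higher and 1 lower, at a median of 0.28. Slc16a3, the lactate exporter MCT4, changed the other way from Slc16a1, by 1.82 in wild-type males (adjusted p = 0.0036) and 1.89 in wild-type females (adjusted p = 0.00176).

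Fatty acid synthesis genes did not follow the oxidation genes as a list. Of 12, 3 rose and 2 fell in wild-type male tumours, 5 rose and 3 fell in wild-type female tumours, and 2 rose and 2 fell in knock-in male tumours, with medians of 0.12, 0.10 and 0.15. Fasn, the fatty acid synthase, rose by 1.12 (adjusted p = 0.000107) in wild-type males. Between knock-in and wild-type male tumours 1 of the 12 was higher and 1 lower, at a median of 0.15. The lower one was Fasn, at -0.58 (adjusted p = 0.0336). Acss2, which makes acetyl-CoA from acetate, changed by -1.96, -2.18 and -0.93 in wild-type males, wild-type females and knock-in males (adjusted p = 2.9e-06, 1.42e-07 and 0.00295).

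Of 11 tested genes of fatty acid uptake and activation, 4 fell and 1 rose in wild-type male tumours, 4 fell and 2 rose in wild-type female tumours, and 0 fell and 1 rose in knock-in male tumours. Acsl4, an acyl-CoA synthetase for arachidonic acid, rose in all 3, by 1.08, 1.19 and 1.05 (adjusted p = 0.00153, 0.000335 and 0.00572). Of 9 further peroxisomal genes, 3 fell and 1 rose in wild-type males, 4 fell and 2 rose in wild-type females, and 3 fell and 1 rose in knock-in males. Pex11a, which promotes division of peroxisomes, changed by -1.80, -1.35 and -0.86 (adjusted p = 8.39e-05, 0.000343 and 0.0223).

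Of 10 other PPAR targets, 7 were tested. In wild-type male tumours 0 rose and 1 fell, in wild-type female tumours 1 rose and 2 fell, and in knock-in male tumours 0 rose and 1 fell. In female normal colon 4 of the 7 were higher in knock-in mice and 0 lower, at a median of 0.55, beside 8.97% of all tested genes called higher. Among them were Mgll, the monoacylglycerol lipase, at 1.68 (adjusted p = 0.000147), Acot2, a mitochondrial acyl-CoA thioesterase, at 0.98 and Pnpla2, the adipose triglyceride lipase, at 0.55. In the same comparison 2 of 4 tested adipocyte markers, 5 of 6 endothelium markers and 3 of 8 smooth muscle markers were higher in knock-in mice, with 0 lower in each list. The adipocyte sum was 40.3 to 51.4 CPM in knock-in and 14.6 to 25.7 CPM in wild-type female normal colon. Most of it was Plin4, at means of 33.4 and 13.1 CPM, and Lipe, at means of 10.1 and 6.11 CPM. Adipoq, Plin1, Cidec, Cfd and Retn had lower means in knock-in mice and Lep a higher one, all between 0 and 0.716 CPM. Against wild-type males, 3 of the 7 targets were lower in wild-type female normal colon and 0 higher, at a median of -0.49. So were 1 of 4 tested adipocyte, all 6 endothelium and 2 of 8 smooth muscle markers. In these lists 0 genes were called between the sexes in knock-in normal colon, or between the genotypes in male normal colon. Whether knock-in females were raised or wild-type females low was not tested. The part of the cell type markers in these results was not tested.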

How the data were processed

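RNA of 21 colon libraries was sequenced after removal of ribosomal RNA, per the labels' protocols. The authors deposited whole-number counts per gene, and the submitters' processing notes name Trimmomatic, HISAT2, featureCounts, DESeq2 and the build mm10, with no versions. Strand setting and filters are not given in the sources used here. The members and the other lists were chosen with earlier results of these data known. Of the 3 knock-in female libraries, 2 carry the same column name and are called replicates a and b.

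The counts were fitted in edgeR 4.0.16 (R 4.3.3) with TMM scaling, filterByExpr, a coefficient for each of 7 groups over all 21 libraries and the robust quasi-likelihood test. P-values were adjusted by Benjamini-Hochberg over 15936 genes, with a threshold of 0.05. Standard errors are the size of the log2 fold change over the square root of F. Alternatives used DESeq2 1.42.0, limma 3.58.1 voom, other scalings, filters and covariates, and each library left out in turn. Counts were simulated for the comparison of wild-type male tumour and normal colon over 15936 genes, with 200 genes of higher count changed. There edgeR recovered 63.2% of genes changed by 1 and 87.6% of those changed by 2 on the log2 scale, with 9 false calls. The real comparison called 5697 genes, so these rates may not hold for it. Libraries that share a replicate number deviated together in that comparison, with correlations of 0.169, 0.174 and 0.215, and its replicate block called 22 genes too.

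Genes with values in every library were, in each tumour comparison, the 4 with the largest change among those called without overlap, those called opposite to most, those called in a genotype, sex or interaction comparison (at most 6 each), and Ppara and Pparg. Genes of other lists were named where called, at most 3 per list and comparison. The authors' deposited table of comparisons was not used. Intervals of depth cover counting error only.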

Additional observations from a re-analysis of the deposited data

Results flagged for a closer look

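For 5 genes the change from normal colon to tumour differed between the male genotypes, more positive in knock-in mice, by the interaction test in edgeR. The differences on the log2 scale were 2.09 for Slc16a1, 1.23 for Pparg, 1.08 for Acadm, 1.06 for Hadhb and 0.76 for Acat1, with adjusted p from 0.0406 to 0.0465. All 5 were lower in wild-type male tumours, and none was called between knock-in tumours and knock-in normal colon. For Angptl4 the change differed between wild-type females and males by 2.29 (adjusted p = 0.0438), with 35, 7 and 5 counts in the 3 female normal libraries.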

How the results depend on the processing

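Wild-type tumour counts were stable, at 20 to 23 genes in males and 24 to 26 in females, and no called value changed sign. Against the 5 calls in knock-in male tumours, DESeq2 gave 8, limma voom 3, the compared groups alone 2, GC content and length offsets 3, the replicate block 6 and both together 3, and leaving out 1 library gave 1 to 7. Against the 12 between male tumours, block and offsets together gave 4 and leaving out 1 library 2 to 12. For knock-in against wild-type female normal colon, with 1 call, DESeq2 gave 2, voom 5, the compared groups 3 and leaving out 1 library 0 to 2. Between the sexes in wild-type normal colon, with 5 calls, library totals and no filter each gave 3, voom 9, the compared groups 2, offsets 3, block and offsets 2, and leaving out 1 library 1 to 8. In wild-type tumours, with 0 calls, voom gave 3 and the compared groups 2. In knock-in normal colon, with 0 calls, DESeq2 gave 5, voom 7 and leaving out 1 library 0 to 4.

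For the interaction with genotype, with 5 calls, no filter gave 3, DESeq2 13 and voom 9. The compared groups, the block, the covariate for libraries numbered 152 or more, the offsets and block with offsets each gave 0, and leaving out 1 library 0 to 12. For the interaction with sex, with 1 call, voom gave 3, the compared groups, the block, the covariate and block with offsets each gave 0, and leaving out 1 library 0 to 2. For the genotype difference between the sexes, with 0 calls, library totals gave 1, DESeq2 2 and leaving out 1 library 0 to 1. The cause was not tested. Under the block the adjusted p of Slc16a1, Pparg and Hadhb in the interaction was 0.0548. In no other comparison were all 3 same-numbered correlations above 0.1. The block was not fitted for the comparisons that use the knock-in female columns, because 2 of these share a name. Whether libraries with the same number come from the same animal is not given in the labels. Library totals moved the median of all genes from 0.01 to 0.15 in female tumours, with the 30 genes at -0.76. Depth limits Fabp2, Angptl4, Ppara, Cd36 and Pdk4, each with under 25 counts in at least 1 library.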
